A study of Rattus norvegicus with 21 samples.

Results

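The aminoacyl-tRNA synthetases are the enzymes that load each amino acid onto its tRNA. The set was chosen by symbol, with no measured value used: 36 synthetase genes were listed, and the 34 with a row in the count table (20 cytosolic and 14 mitochondrial, out of 17025 genes) were analysed. Symbols that end in 2 are the mitochondrial enzymes; Iars2 and Mars2 have no row and were not analysed here. Kars and Gars serve both compartments in mammals and were counted as cytosolic, and the symbol-based split takes no account of this.

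RNA was sequenced from isolated pancreatic islets of Sprague Dawley rats in 21 libraries, to follow gene expression under glucolipotoxicity (GLT), the combined load of high glucose and palmitate, a saturated fatty acid. GLT medium had 27 mM glucose and 300 µM palmitate, control medium 11 mM glucose and no palmitate, and compounds D and E, known from the labels by these letters alone, were used at 300 nM. Islets of 8 rats were pooled in each of 3 separate isolations (preparations), and each pool was divided over the groups, so that a replicate is a pool and differences between animals are not measured. The undisputed groups were 24 h GLT with compound D (3 libraries), 24 h GLT with compound E (2, from preparations 1 and 2), 24 h GLT (3), 3 h GLT with compound D (3), 3 h GLT with compound E (1, from preparation 2) and 3 h control (3). The labels used here give no age or sex of the rats.

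The other 6 libraries are named differently by the sample records and by the deposited sample sheet. By the records, condition 2 (3 libraries) is 24 h control, while the sheet calls it 3 h GLT. For condition 3 (3 libraries) the records give 3 h GLT, while the sheet has 24 h control. They are called condition 2 and condition 3 below, and each comparison with them is given with both readings. The summed level of 6 endothelial markers was 170.2 to 194.8 CPM (a gene's count relative to a fixed library total, after TMM scaling) in condition 2 and 63.0 to 94.2 CPM in condition 3. It was 22.9 to 90.4 CPM over the libraries of 24 h GLT with compound D, 24 h GLT with compound E and 24 h GLT, and 142 to 184 CPM over those of 3 h GLT with compound D, 3 h GLT with compound E and 3 h control. The summed level of 4 red cell markers was 8.40 to 12.5 CPM in condition 2 and 0.508 to 0.811 CPM in condition 3. It was 0.377 to 1.55 CPM over the same 24 h libraries and 3.42 to 12.5 CPM over the same 3 h libraries. Both sums were closer in condition 2 to the 3 h libraries and in condition 3 to the 24 h libraries, the times on the sheet. The stellate sum of condition 3 (1070 to 1488 CPM) lay above those of all other groups, and the labels were not tested.

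As background, a synthetase activates its amino acid with ATP and transfers it to the matching tRNA, and the charged tRNA then feeds the ribosome. Cytosolic enzymes supply the translation of nuclear transcripts, which in beta cells includes a heavy load of proinsulin, and the mitochondrial enzymes, also encoded in the nucleus, supply the few proteins of the mitochondrial genome. In mammals several cytosolic synthetases sit in a multisynthetase complex held together by the scaffold proteins Aimp1, Aimp2 and Eef1e1. In mouse cells, many cytosolic synthetase genes are induced by ATF4, the transcription factor of the integrated stress response, which binds C/EBP-ATF elements together with C/EBP partners. Uncharged tRNA activates the kinase Eif2ak4 (GCN2), which leads to ATF4.

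Promoter windows of 31 of the 34 genes (250 bases before to 50 bases after the RefSeq gene start, GRCr8) were searched on both strands for TGATGCAA, a C/EBP-ATF element, and for the looser form TGATGNAA, which includes it. TGATGCAA was found in 7 of 17 cytosolic promoters (41.18%: Aars, Cars, Iars, Mars, Nars, Tars and Yars), in 0 of 14 mitochondrial promoters and in 204 of 27457 promoters in all (0.743%). TGATGNAA was found in the same 7 cytosolic promoters, in 0 of 14 mitochondrial ones and in 3.817% of all promoters. Dars, Gars and Rars had no entry. A match is a match of letters, not evidence of binding. The promoters of Mars, Nars, Cars and Tars are shown because these carry the element and had the smallest adjusted p of the carriers for compound D at 24 h. Pars2 is shown as the mitochondrial gene with the smallest p there, and Wars, chosen after its values were seen, as a synthetase that passed in several comparisons below. Capitals mark TGATGCAA or, on the other strand, its complement TTGCATCA.
Mars (chr7:65023704-65024003, minus strand): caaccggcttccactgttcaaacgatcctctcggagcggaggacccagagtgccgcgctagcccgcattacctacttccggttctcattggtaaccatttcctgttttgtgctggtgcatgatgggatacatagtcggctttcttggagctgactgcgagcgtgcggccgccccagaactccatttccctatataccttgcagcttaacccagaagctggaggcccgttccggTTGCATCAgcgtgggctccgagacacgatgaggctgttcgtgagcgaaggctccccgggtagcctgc
Nars (chr18:60275733-60276032, minus strand): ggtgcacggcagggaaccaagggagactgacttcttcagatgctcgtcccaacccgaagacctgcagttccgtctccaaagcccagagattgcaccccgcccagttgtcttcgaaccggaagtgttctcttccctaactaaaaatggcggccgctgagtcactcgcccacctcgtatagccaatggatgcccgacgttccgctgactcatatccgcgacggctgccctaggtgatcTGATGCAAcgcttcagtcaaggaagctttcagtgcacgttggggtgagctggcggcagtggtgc
Cars (chr1:208225320-208225619, minus strand): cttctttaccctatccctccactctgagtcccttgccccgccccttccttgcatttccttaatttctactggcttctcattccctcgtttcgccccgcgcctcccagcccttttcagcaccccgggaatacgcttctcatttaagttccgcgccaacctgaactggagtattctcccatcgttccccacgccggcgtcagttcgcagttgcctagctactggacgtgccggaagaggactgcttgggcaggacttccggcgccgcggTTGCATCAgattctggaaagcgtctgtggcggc
Tars (chr2:62114753-62115052, minus strand): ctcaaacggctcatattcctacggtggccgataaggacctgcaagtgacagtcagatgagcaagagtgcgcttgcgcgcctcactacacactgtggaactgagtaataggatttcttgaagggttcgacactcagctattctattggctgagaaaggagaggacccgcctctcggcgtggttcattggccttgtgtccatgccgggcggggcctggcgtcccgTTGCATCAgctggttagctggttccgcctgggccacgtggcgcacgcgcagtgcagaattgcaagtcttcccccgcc
Pars2 (chr5:126662669-126662968, plus strand): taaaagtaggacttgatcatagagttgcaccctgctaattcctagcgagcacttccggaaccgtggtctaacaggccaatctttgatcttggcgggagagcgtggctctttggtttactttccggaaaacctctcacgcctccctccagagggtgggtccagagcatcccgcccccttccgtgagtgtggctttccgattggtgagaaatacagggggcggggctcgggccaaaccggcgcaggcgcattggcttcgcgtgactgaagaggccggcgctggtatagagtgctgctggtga
Wars (chr6:133571596-133571895, minus strand): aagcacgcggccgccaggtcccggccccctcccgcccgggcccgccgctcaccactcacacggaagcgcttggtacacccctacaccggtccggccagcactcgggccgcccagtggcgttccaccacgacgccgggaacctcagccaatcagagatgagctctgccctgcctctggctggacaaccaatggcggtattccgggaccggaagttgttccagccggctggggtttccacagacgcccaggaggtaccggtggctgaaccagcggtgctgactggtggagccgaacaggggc
Of the other matches, those in Iars and Yars are shown with the bases around them only.
Iars (chr17:15193659-15193686, minus strand): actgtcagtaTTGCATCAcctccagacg
Yars (chr5:146820191-146820212, plus strand): cgagctcagcTGATGCAAcctg
In 5 of the 7 genes the element reads as TTGCATCA along the gene's strand, and in Nars and Yars as TGATGCAA. Neither form was present in the Pars2 and Wars windows.

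Libraries held 22.3 to 40.2 M counts in genes (median 27.8 M), and all 34 genes passed the filter on low counts, among 12576 genes tested. Between 9.32% and 45.9% of a library's counts fell in the insulin genes, and between 0.0333% and 7.88% in Rn45s, a ribosomal RNA gene. Reads ambiguous between genes made up 0.161% to 2.32%. The condition 3 library of preparation 2 stood apart, with the highest depth and the lowest shares of Rn45s and of ambiguous reads. Of the marker lists for beta, alpha, delta, PP, acinar, ductal, endothelial, stellate, macrophage and red cells, no list held a marker at 0 in every library. In bulk islets, fewer cells of a type and less RNA per cell cannot be told apart.

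The median spread of synthetase transcripts between libraries was below that of all genes tested, which were not matched on level. The standard deviation of log2 level over the 21 libraries had a median of 0.241 for cytosolic genes and 0.316 for mitochondrial genes, against 0.359 for all genes tested. The lowest count in a library was 49 among the mitochondrial genes (Ears2) and 669 among the cytosolic genes (Farsa). The part of low counts in the mitochondrial spread was not tested. Wars, the tryptophan enzyme, varied most among the cytosolic genes (SD 0.41 on the log2 scale, 80.5 to 216 CPM). Lars, the leucine enzyme, varied least among them (SD 0.15, 187 to 291 CPM). Among mitochondrial genes Ears2, the glutamate enzyme (SD 0.45, 1.68 to 7.79 CPM), and Pars2, the proline enzyme (SD 0.43, 2.39 to 7.07 CPM), varied most, and Cars2, the cysteine enzyme, least (SD 0.15, 8.61 to 12.5 CPM). Median levels over the libraries lay between 30.5 and 552 CPM for the cytosolic genes and between 3.67 and 23.8 CPM for the mitochondrial genes. CPM is not per length, so levels are not ranked between genes.

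Averaged over the members on the log2(CPM + 0.5) scale, cytosolic and mitochondrial synthetases did not move in parallel across the conditions. The cytosolic minus mitochondrial difference averaged 4.01 in 24 h GLT with compound D (3.95 to 4.07), 3.96 in 24 h GLT with compound E (3.94 to 3.98), 4.06 in 24 h GLT (4.00 to 4.10), 4.12 in 3 h GLT with compound D (4.09 to 4.15), 4.08 in the library of 3 h GLT with compound E, 3.77 in condition 3 (3.74 to 3.82), 4.18 in condition 2 (4.15 to 4.21) and 3.91 in 3 h control (3.82 to 3.98). Condition 3 had the lowest mean and condition 2 the highest, and their libraries did not overlap. Every library of 24 h GLT lay between those of condition 2 and condition 3. The mitochondrial mean was 3.06 in condition 2, 3.13 in 3 h GLT with compound D and 3.12 in the library of 3 h GLT with compound E. It was 3.34 in condition 3, 3 h control and 24 h GLT, 3.30 in 24 h GLT with compound D and 3.32 in 24 h GLT with compound E. The cytosolic mean was 7.10, 6.94 and 7.29 in condition 3 (preparations 1, 2 and 3), against 7.33, 7.12 and 7.29 in 3 h control. The groups overlapped, and the lowest value was that of the condition 3 library of preparation 2, which stood apart in depth and Rn45s. The cytosolic minus mitochondrial difference of that library, 3.76, lay between those of the other condition 3 libraries. No test was made of these means over genes.

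**Figure D1:**
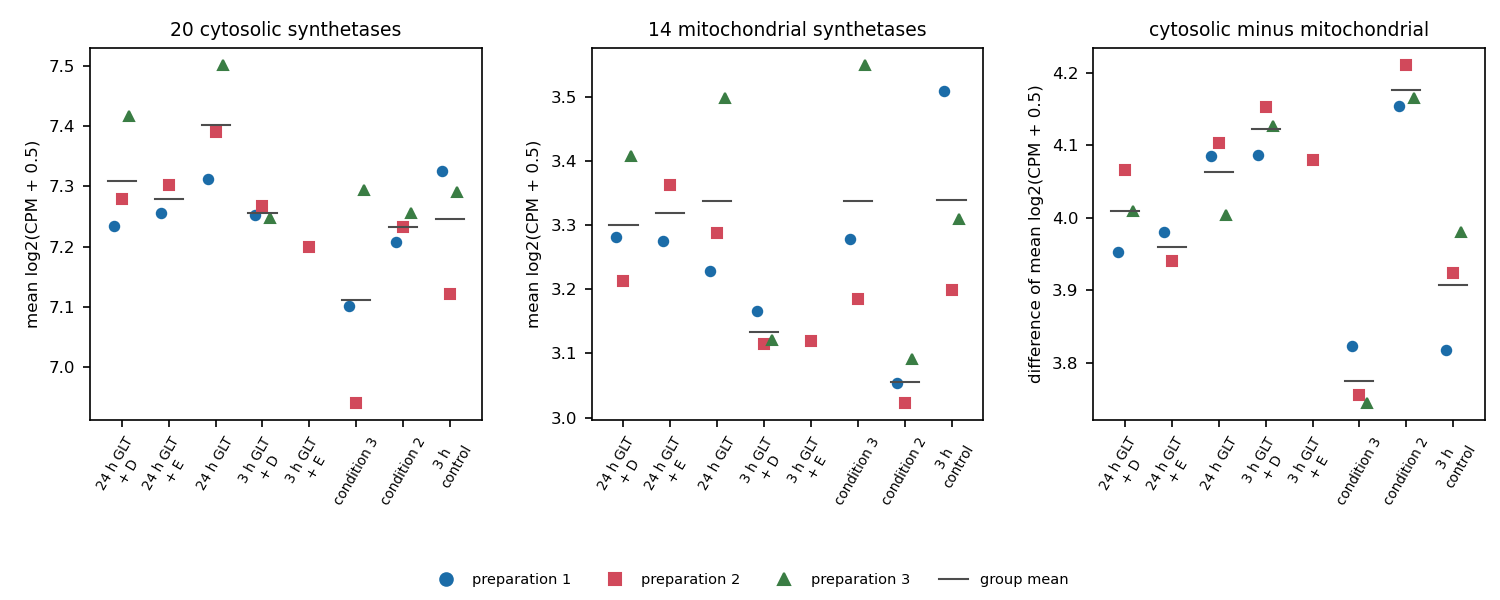
Mean log2(CPM + 0.5) of the 20 cytosolic genes (left), of the 14 mitochondrial genes (middle) and their difference (right) in each of the 21 libraries, by condition; symbols mark the preparation and lines the group means. The difference is lowest in condition 3 (mean 3.77) and highest in condition 2 (mean 4.18).

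With compound D at 24 h Wars fell, and 0 of the other 33 synthetases passed the test. Wars had 118, 97.6 and 160.4 CPM in 24 h GLT with compound D (preparations 1, 2 and 3), against 167, 169.8 and 216 CPM in 24 h GLT. The groups did not overlap, and the compound D library was lower in 3 of 3 preparations. The log2 fold change was -0.58 (SE 0.14, adjusted p = 0.0346, edgeR's quasi-likelihood test with Benjamini-Hochberg adjustment over all genes tested). Of 20 cytosolic genes 0 rose and 1 fell, with a median change of -0.11, and of 14 mitochondrial genes 0 passed, with a median of 0.00. Over all genes 4.08% passed (1.96% higher and 2.12% lower), with a median change of 0.01, so that 1 of 34 synthetases is no more than the background share. The Wars call was lost when any 1 of the 6 libraries was left out, and also with a term for libraries with over 1.5% ambiguous reads. Of the cell type markers, 1 of 7 beta cell genes rose between these groups and 0 of the other lists passed.

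Other genes of amino acid supply and stress moved with compound D at 24 h in both directions. Of 20 integrated stress response genes, 2 fell: Atf3, a stress-induced transcription factor (-1.89, SE 0.32, adjusted p = 0.00498), and Ppp1r15a, which brings phosphatase to eIF2 (-1.12, SE 0.23, adjusted p = 0.0162). Atf3 averaged 10.5 CPM in 24 h GLT with compound D and 39.5 CPM in 24 h GLT. Of 14 amino acid synthesis genes, 2 of the serine pathway rose: Phgdh (0.84, SE 0.16, adjusted p = 0.0103) and Psat1 (0.81, SE 0.19, adjusted p = 0.0309). Of 11 amino acid transporters, the glycine transporter gene Slc6a9 rose (0.69, SE 0.18, adjusted p = 0.042). Both C/EBP-ATF bearing and other cytosolic synthetases had 0 genes that rose here.

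With compound E at 24 h, Wars stayed near its level in GLT alone. Its 2 libraries, from preparations 1 and 2, had 169 and 166 CPM, against 167 and 169.8 CPM in 24 h GLT of the same preparations. The log2 difference was 0.03 (95% interval -0.31 to 0.38). In edgeR 0 of 34 synthetases passed and 0% of all genes, with 2 synthetases and 813 genes at an unadjusted p below 0.05, and DESeq2 called 0 synthetases. Without preparation 2 the edgeR count was 2, and without its compound E library alone 3. The smallest p values were those of Nars, the asparagine enzyme (-0.36, SE 0.16), and Lars (-0.34, SE 0.16), both with an adjusted p of 0.566. Nars had 356 and 409.7 CPM with compound E, against 461, 489.9 and 578 CPM in 24 h GLT. Lars had 187 and 222 CPM with compound E, against 263, 254 and 271 CPM in 24 h GLT. For both genes the compound E libraries lay below all 3 libraries of GLT alone.

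The compounds were compared directly at 300 nM and 24 h, as 1 pair. Wars was higher with compound E than with compound D in both shared preparations (169 against 118 CPM and 166 against 97.6 CPM). The log2 difference was 0.61 (SE 0.16, 95% interval 0.27 to 0.95, adjusted p = 0.0528), just outside the threshold. Mars, the methionine enzyme, had 138 and 158 CPM with compound E, against 179, 209.7 and 166 CPM with compound D (-0.35, 95% interval -0.65 to -0.06, adjusted p = 0.185). Of 34 synthetases 0 passed, 5 had an unadjusted p below 0.05 and DESeq2 called 1, while 3.01% of all genes passed (1.83% higher and 1.18% lower). Without preparation 2, which leaves 1 library with compound E, 8 synthetases passed, and without preparation 1 or 3, 0 did. Without the compound E library of preparation 2 alone, 3 passed. Of the 20 stress response genes, 4 were higher with compound E: Atf3 (1.93, SE 0.35, adjusted p = 0.0077), Ppp1r15a (1.42, SE 0.26, adjusted p = 0.00809), Ddit3, the CHOP gene (1.61, SE 0.33, adjusted p = 0.0166), and Cebpb, a C/EBP factor (2.07, SE 0.47, adjusted p = 0.0274). Psat1 (-0.998, SE 0.23, adjusted p = 0.0262) and Phgdh (-0.77, SE 0.19, adjusted p = 0.0378) were lower with compound E, as was Slc6a9 (-0.97, SE 0.21, adjusted p = 0.021), and Slc1a5, a glutamine transporter gene, was higher (1.08, SE 0.26, adjusted p = 0.0366). Gatc, a subunit of the mitochondrial glutamine amidotransferase that completes glutaminyl-tRNA, was also higher (1.17, SE 0.27, adjusted p = 0.0306).

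Against 3 h control, the undisputed baseline, Wars rose in 24 h GLT, and 0 of the other 33 synthetases passed the threshold. Wars had 167, 169.8 and 216 CPM in 24 h GLT, against 102, 88.8 and 151 CPM in 3 h control. The groups did not overlap, and the change was 0.72 (SE 0.14, adjusted p = 0.00733, higher in 3 of 3 preparations). This comparison mixes time in culture with GLT. Over all genes 8.26% passed (4.14% higher and 4.12% lower), and 1 of 20 cytosolic and 0 of 14 mitochondrial genes did, with medians of 0.22 and -0.05 against -0.02 for all genes. The members thus passed less often than genes in general. Without preparation 1 or without preparation 3 the Wars call was lost, and it was kept when any single library was left out. Without preparation 2, or without its 3 h control library, 2 synthetases passed. Among partner genes, Atf3 rose (2.01, SE 0.32, adjusted p = 0.00205), as did Ppp1r15a (1.22, SE 0.23, adjusted p = 0.0064), while Chac1, a glutathione-degrading target of the stress response, fell (-0.79, SE 0.22, adjusted p = 0.0365). Slc7a3, a cationic amino acid transporter gene, rose (2.75, SE 0.41, adjusted p = 0.00127), as did the cystine transporter gene Slc7a11 (1.26, SE 0.34, adjusted p = 0.0346), the folate enzyme gene Mthfd1l (1.01, SE 0.13, adjusted p = 0.000635) and Phgdh (0.75, SE 0.16, adjusted p = 0.0121). Gatc rose as well (0.92, SE 0.24, adjusted p = 0.0313). Endothelial markers (4 of 6), beta cell markers (3 of 7), red cell markers (2 of 3 tested) and ductal markers (1 of 3) fell between these groups, and stellate markers went both ways (1 higher and 1 lower of 6). Their part in the result was not tested.

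More synthetases passed between 24 h GLT and condition 2 (by the records 24 h control, by the sheet 3 h GLT) than in any other comparison made here. In it 7 of 34 synthetases rose and 0 fell: Wars, Farsb, Dars and Qars of the cytosolic enzymes and Rars2, Yars2 and Fars2 of the mitochondrial ones. Over all genes 8.52% passed (3.63% higher and 4.89% lower), so that both compartments, 4 of 20 and 3 of 14, lay above the background share. Medians were 0.15 for cytosolic and 0.34 for mitochondrial genes, against -0.02 for all genes.

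Wars had 167, 169.8 and 216 CPM in 24 h GLT, against 80.5, 92.2 and 126 CPM in condition 2 (0.90, SE 0.14, adjusted p = 0.00204). Farsb, a subunit of the phenylalanine enzyme, had 103, 87.8 and 87.1 CPM in 24 h GLT, against 55.8, 66.6 and 54.5 CPM in condition 2 (0.65, SE 0.13, adjusted p = 0.00662). Its partner subunit gene Farsa, which did not pass, had 29.3, 33.6 and 37.2 CPM in 24 h GLT, against 30.5, 27.9 and 29.9 CPM in condition 2. The 24 h GLT libraries were above all condition 2 libraries for Wars and Farsb, while those of Farsa overlapped. Dars, the aspartate enzyme of the multisynthetase complex, had 113, 101 and 113 CPM in 24 h GLT, against 62.7, 62.7 and 82.3 CPM in condition 2 (0.66, SE 0.14, adjusted p = 0.0119). Qars, the glutamine enzyme of the same complex, had 79.6, 76.1 and 95.7 CPM in 24 h GLT, against 56.7, 54.3 and 67.4 CPM in condition 2 (0.49, SE 0.13, adjusted p = 0.0338). Neither gene's groups overlapped.

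Among the mitochondrial enzymes, Rars2, for arginine, had 23.4, 23.8 and 30.0 CPM in 24 h GLT, against 11.0, 14.1 and 16.5 CPM in condition 2 (0.89, SE 0.17, adjusted p = 0.00672). Yars2, for tyrosine, had 11.6, 9.81 and 11.1 CPM in 24 h GLT, against 6.46, 7.12 and 5.19 CPM in condition 2 (0.80, SE 0.20, adjusted p = 0.0241). Fars2, for phenylalanine, had 10.4, 11.5 and 10.8 CPM in 24 h GLT, against 6.20, 6.66 and 5.71 CPM in condition 2 (0.82, SE 0.21, adjusted p = 0.029). All 3 genes were higher in 3 of 3 preparations with no overlap between the groups. Rars2 overlaps Orc3 and Slc35a1 in the RefSeq annotation of GRCr8, and the strand setting of the counting is not given in the sources used here, so reads of overlapping genes may not be told apart.

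**Figure D2:**
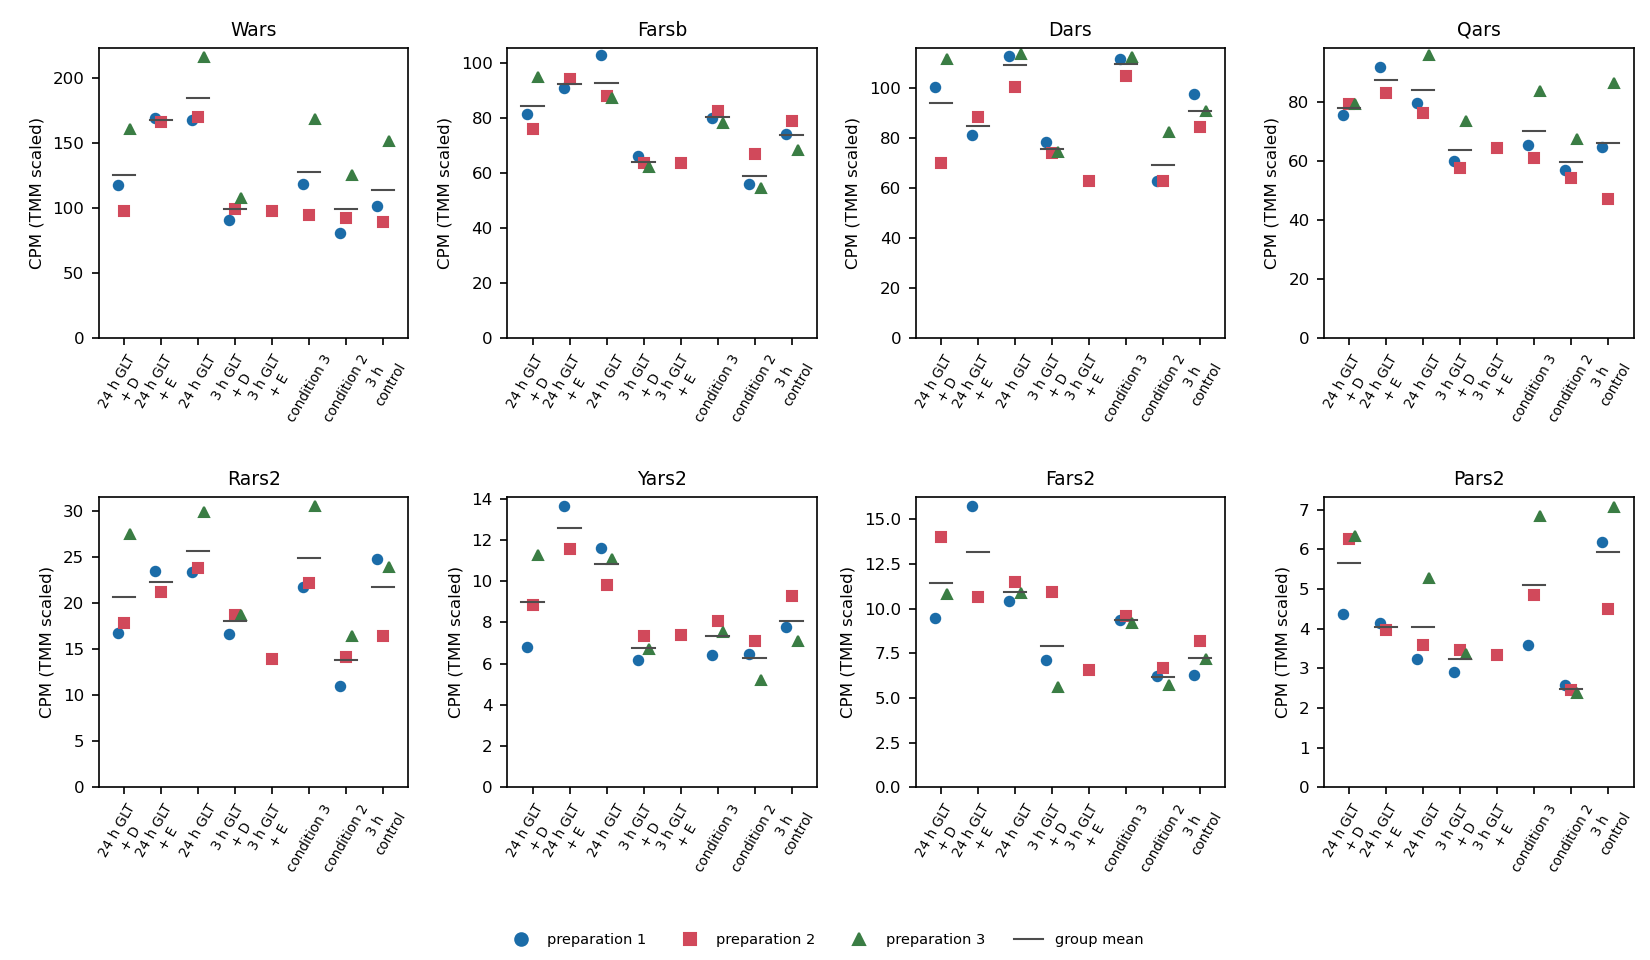
Level (CPM, TMM scaled, linear axis from 0) of 8 synthetases in every library, by condition; symbols mark the preparation and lines the group means. Wars is lower in 24 h GLT with compound D (97.6 to 160.4 CPM) than in 24 h GLT (167 to 216 CPM), and Pars2 lies between 2.39 and 2.57 CPM in condition 2.

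These 7 calls rest on few libraries. Without preparation 1 or without preparation 3, 0 synthetases passed, and without preparation 2, 7 did. Without the condition 2 library of preparation 1 alone, 1 passed (Wars), without the 24 h GLT library of that preparation 3, and without any other single library of these groups 4 or 5. With the groups compared fitted alone, 11 synthetases passed. Endothelial markers (4 of 6) and red cell markers (2 of 3 tested) fell between the same groups, with summed endothelial levels of 30.2 to 78.3 CPM in 24 h GLT against 170.2 to 194.8 CPM in condition 2, and red cell levels of 0.377 to 0.604 CPM against 8.40 to 12.5 CPM. Beta cell markers (3 of 7) fell as well, and 3 of 6 stellate markers rose and 1 fell (474 to 869 CPM in 24 h GLT against 384 to 466 CPM in condition 2). Their part in the synthetase changes was not tested.

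In the same comparison, 3 of 20 stress response genes fell, Chac1 (-1.93, SE 0.22, adjusted p = 0.00026), Ddit4, an mTORC1 inhibitor gene (-1.17, SE 0.26, adjusted p = 0.0136), and Trib3, an ATF4 target (-0.96, SE 0.27, adjusted p = 0.0408), and Eif2s1, the eIF2 alpha subunit gene, rose (0.50, SE 0.14, adjusted p = 0.0399). Of 11 transporters 4 fell, among them Slc7a1 (-1.004, SE 0.19, adjusted p = 0.00518) and Slc7a5 (-0.55, SE 0.13, adjusted p = 0.0177), and Slc7a3 rose (2.01, SE 0.39, adjusted p = 0.00718). Among the synthesis genes Mthfd1l (0.79, SE 0.13, adjusted p = 0.00293) and Phgdh (0.70, SE 0.16, adjusted p = 0.0177) rose, and Mthfd2, a mitochondrial folate enzyme gene, fell (-0.57, SE 0.14, adjusted p = 0.0222). The scaffold genes Aimp1, Aimp2 and Eef1e1 passed in none of the comparisons of this report.

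Between 24 h GLT and condition 3 (by the records 3 h GLT, by the sheet 24 h control), 2 of 20 cytosolic synthetases rose and 0 of 14 mitochondrial ones. Over all genes 5.97% passed (3.31% higher and 2.66% lower), so that the members' share was no more than that of all genes. Tars, the threonine enzyme, had 209, 206 and 217 CPM in 24 h GLT, against 148, 104 and 164 CPM in condition 3 (0.62, SE 0.15, adjusted p = 0.03). Wars had 167, 169.8 and 216 CPM in 24 h GLT, against 118, 94.9 and 169 CPM in condition 3 (0.56, SE 0.14, adjusted p = 0.032). The Tars groups did not overlap, and those of Wars overlapped by 1 library, though 24 h GLT was higher within each preparation. In all, 18 of 20 cytosolic genes had a change above 0, with a median of 0.23, against 0.02 for mitochondrial genes and -0.00 for all genes. Both calls were lost without any 1 preparation, and 1 synthetase at most passed when a single library was left out.

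Of 20 stress response genes, 5 rose and 0 fell in this comparison: Atf3 (2.57, SE 0.33, adjusted p = 0.000677), Ppp1r15a (1.498, SE 0.23, adjusted p = 0.00283), Ddit3 (1.18, SE 0.30, adjusted p = 0.0314), Trib3 (1.08, SE 0.27, adjusted p = 0.0319) and Atf4 (0.53, SE 0.15, adjusted p = 0.0469), the last of which lies outside the naming rule and was named after its values were seen. Of 11 transporters 3 rose, Slc7a11 (2.07, SE 0.35, adjusted p = 0.00414), Slc7a5 (0.56, SE 0.13, adjusted p = 0.0206) and Slc7a3 (1.496, SE 0.38, adjusted p = 0.0319). Mthfd1l (1.05, SE 0.13, adjusted p = 0.000677) and Gatc (0.97, SE 0.24, adjusted p = 0.0319) also rose. Wars therefore passed the test, as higher, in 24 h GLT against condition 2, condition 3 and 3 h control. These comparisons share the 24 h GLT libraries. Markers of beta (2 of 7), alpha (2 of 5), delta (1 of 3) and stellate cells (1 of 6) fell between 24 h GLT and condition 3, and their part was not tested.

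**Figure D3:**
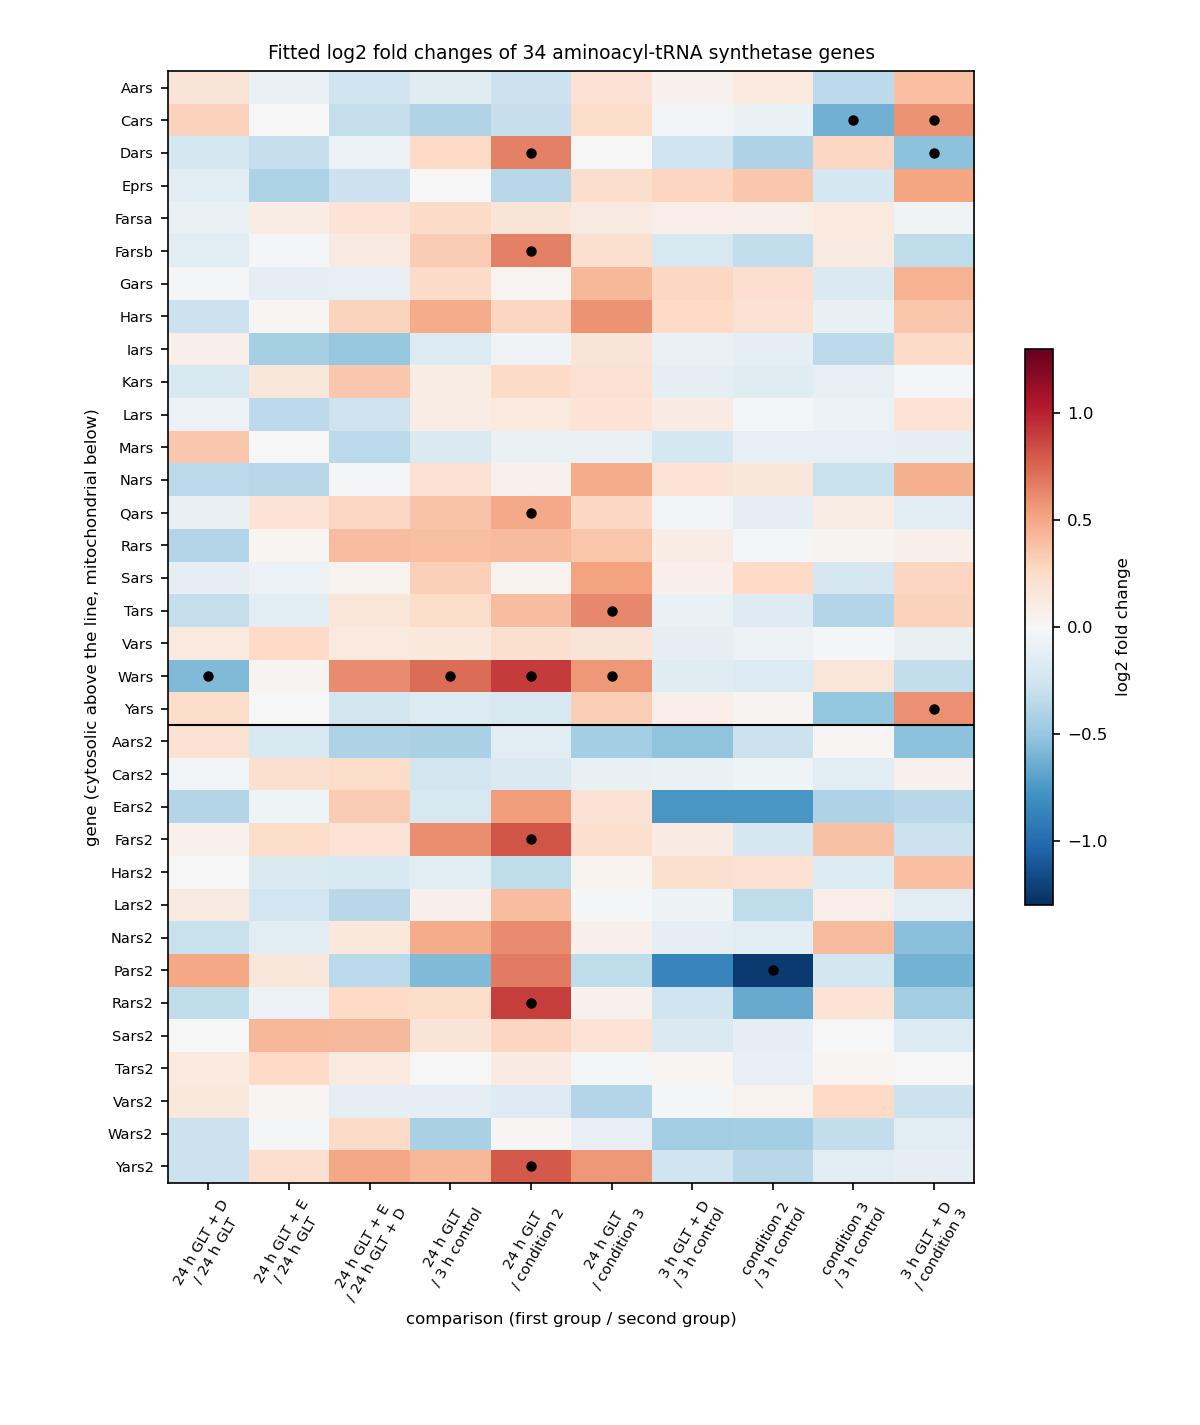
Fitted log2 fold changes of the 34 genes (rows, cytosolic above the line) in 10 comparisons (columns, first group over second); dots mark an adjusted p below 0.05. The 7 dots of 24 h GLT over condition 2 are spread over both compartments, while Wars has a dot in 4 of the 10 columns.

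Against 3 h control, condition 2 and condition 3 each had 1 synthetase that passed the test, a different gene in each. Pars2 had 2.57, 2.46 and 2.39 CPM in condition 2 (by the records 24 h control, by the sheet 3 h GLT), against 6.19, 4.496 and 7.07 CPM in 3 h control. The groups did not overlap and the change was -1.24 (SE 0.23, adjusted p = 0.00778), where 2.31% of all genes passed (1.96% higher and 0.342% lower). With 1 call, the members' share lay near that of all genes. Mitochondrial genes as a list had a median of -0.25 there, with 12 of 14 below 0, cytosolic genes -0.05 and all genes -0.02. Cars, the cysteine enzyme, had 75.9, 77.6 and 79.1 CPM in condition 3 (by the records 3 h GLT, by the sheet 24 h control), against 138, 107 and 114 CPM in 3 h control. The groups did not overlap and the change was -0.62 (SE 0.13, adjusted p = 0.0357), where 0.692% of all genes passed (0.254% higher and 0.437% lower). Cytosolic medians were -0.10 there, against 0.01 for mitochondrial genes and -0.03 for all genes. The Pars2 call was lost without preparation 1 or 3, without the 3 h control library of preparation 1 and without the condition 2 library of preparation 3, and the Cars call without any 1 preparation. Without preparation 2, or its 3 h control library alone, 2 synthetases passed in condition 2 against 3 h control.

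Partner genes in these comparisons were Ppp1r15a (1.27, SE 0.23, adjusted p = 0.00842), Chac1 (1.14, SE 0.22, adjusted p = 0.0112) and Atf3 (1.36, SE 0.32, adjusted p = 0.0342), with Slc7a5 (0.72, SE 0.13, adjusted p = 0.00615) and Slc1a4, a neutral amino acid transporter gene (1.11, SE 0.28, adjusted p = 0.0494), all higher in condition 2 than in 3 h control. In condition 3 Chac1 (-1.06, SE 0.22, adjusted p = 0.0392) and Mthfd2 (-0.75, SE 0.14, adjusted p = 0.0251) were lower than in 3 h control. Endothelial (2 of 6) and red cell markers (2 of 3 tested) were also lower in condition 3, and 3 of 6 stellate markers were higher. Their part in the Cars change was not tested.

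With compound D at 3 h, the reading of the labels decides whether any synthetase passed the test. Set against condition 3 (the 3 h GLT group of the records), 2 cytosolic genes rose and 1 fell, where 6.93% of all genes passed (3.99% higher and 2.94% lower). The members' share lay near that of all genes. Cars had 124, 115 and 110.3 CPM in 3 h GLT with compound D, against 75.9, 77.6 and 79.1 CPM in condition 3 (0.59, SE 0.13, adjusted p = 0.0131). Yars, the tyrosine enzyme, had 187, 228 and 212 CPM in 3 h GLT with compound D, against 126, 127 and 165 CPM in condition 3 (0.59, SE 0.14, adjusted p = 0.0181). Dars had 78.5, 73.8 and 74.3 CPM in 3 h GLT with compound D, against 111, 105 and 112 CPM in condition 3 (-0.53, SE 0.14, adjusted p = 0.0333). None of these groups overlapped. Without preparation 1 or 3, and without either preparation 1 library alone, 0 of the 3 genes passed, and without either preparation 2 library 1 did. Cars and Yars carry the promoter element shown above. Yars overlaps S100pbp in GRCr8 and Dars a ribosomal protein pseudogene.

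Set against condition 2 (the 3 h GLT group of the sheet), 0 of 34 synthetases passed in edgeR, with 1 at an unadjusted p below 0.05, where 0.493% of all genes passed (0.0636% higher and 0.429% lower); DESeq2 was not run on it. The changes of Cars (0.05) and Dars (0.13) were small there. Against condition 3, 6 of 11 transporters rose, among them Slc7a1 (1.26, SE 0.19, adjusted p = 0.00218), Slc38a2 (0.87, SE 0.20, adjusted p = 0.0178), Slc7a5 (0.54, SE 0.13, adjusted p = 0.0214) and Slc7a11 (1.28, SE 0.34, adjusted p = 0.0349), and 3 of 20 stress response genes, Chac1 (1.58, SE 0.22, adjusted p = 0.00152), Trib3 (1.76, SE 0.28, adjusted p = 0.00305) and Atf4 (0.73, SE 0.15, adjusted p = 0.0113). Against condition 2, 0 genes of either list passed in edgeR, with 3 transporters and 7 stress response genes at an unadjusted p below 0.05. Endothelial (4 of 6) and red cell markers (2 of 3 tested) were higher and 4 of 6 stellate markers lower in 3 h GLT with compound D than in condition 3, and their part was not tested.

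Against 3 h control, 3 h GLT with compound D changed 0 of 34 synthetases in edgeR, with 2 at an unadjusted p below 0.05 and 1 in DESeq2, where 0.103% of all genes passed (0.0954% higher and 0.00795% lower). Pars2 had 2.91, 3.47 and 3.35 CPM in 3 h GLT with compound D, against 6.19, 4.496 and 7.07 CPM in 3 h control (-0.86, SE 0.22, adjusted p = 0.239). Aars2, the mitochondrial alanine enzyme, had 11.0, 6.58 and 9.37 CPM in 3 h GLT with compound D, against 16.0, 10.3 and 12.2 CPM in 3 h control (-0.52, SE 0.23, adjusted p = 0.742). For Pars2 the groups did not overlap, and for Aars2 they did. The library of 3 h GLT with compound E, which has no replicate, had 3.33 CPM of Pars2 and 97.3 CPM of Wars.

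In islets under GLT and compound D, Pars2 rose at 24 h over 3 h and 0 other synthetases passed, where 6.11% of all genes passed (3.07% higher and 3.05% lower). The members' share was below that of all genes. Pars2 had 4.36, 6.26 and 6.33 CPM at 24 h, against 2.91, 3.47 and 3.35 CPM at 3 h (0.79, SE 0.22, adjusted p = 0.0496), with no overlap. Wars had 118, 97.6 and 160.4 CPM at 24 h, against 90.6, 99.04 and 107 CPM at 3 h, and these groups overlapped. The mitochondrial median was 0.21, with 11 of 14 genes above 0, the cytosolic median -0.02 and that of all genes 0.02. Without any 1 preparation, or any 1 library of the groups, the Pars2 call was lost. Of the partner genes Phgdh rose (1.64, SE 0.17, adjusted p = 0.000124), as did Mthfd1l (0.56, SE 0.13, adjusted p = 0.024) and Eef2k, the elongation factor 2 kinase gene (0.89, SE 0.22, adjusted p = 0.0259). Slc7a1 fell (-0.79, SE 0.18, adjusted p = 0.0219). Endothelial (3 of 6), red cell (2 of 3 tested), beta cell (1 of 7) and ductal markers (1 of 3) fell and stellate markers (2 of 6) rose between these groups, and their part was not tested.

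Between 24 h GLT with compound D and condition 2, 4 of 34 synthetases rose and 0 fell, where 12.5% of all genes passed (5.93% higher and 6.6% lower). The members' share lay near that of all genes. They were Pars2 (1.17, SE 0.23, adjusted p = 0.00416), Farsb (0.52, SE 0.13, adjusted p = 0.015), Fars2 (0.87, SE 0.21, adjusted p = 0.0153) and Rars2 (0.56, SE 0.17, adjusted p = 0.0437). Pars2 had 4.36, 6.26 and 6.33 CPM with compound D, against 2.57, 2.46 and 2.39 CPM in condition 2. Farsb had 81.5, 76.0 and 94.7 CPM with compound D, against 55.8, 66.6 and 54.5 CPM in condition 2. Fars2 had 9.46, 13.99 and 10.8 CPM with compound D, against 6.20, 6.66 and 5.71 CPM in condition 2, and Rars2 had 16.8, 17.8 and 27.6 CPM against 11.0, 14.1 and 16.5 CPM. None of the 4 genes' groups overlapped. Farsb, Fars2 and Rars2 also passed in 24 h GLT against condition 2; both comparisons share the condition 2 libraries. Set against condition 3, 0 of 34 passed in edgeR, with 6 at an unadjusted p below 0.05, where 0.716% of all genes passed (0.461% higher and 0.254% lower); DESeq2 was not run on it. Without preparation 3, 0 synthetases passed against condition 2, without preparation 1, or without the condition 2 library of preparation 1 or 3, 1 did, and without that of preparation 2, 2 did. Endothelial (5 of 6), red cell (2 of 3 tested) and ductal markers (1 of 3) were lower with compound D than in condition 2, beta cell markers were higher (1 of 7) and lower (2 of 7), stellate markers higher (3 of 6) and lower (1 of 6), and their part was not tested.

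Of 20 stress response genes, 7 were lower and 1 higher with compound D than in condition 2, the lower ones including Chac1 (-1.17, SE 0.22, adjusted p = 0.00339) and Ppp1r15a (-1.17, SE 0.23, adjusted p = 0.00507). Of 11 transporters 5 were lower and 0 higher, among them Slc7a1 (-1.01, SE 0.19, adjusted p = 0.00314) and Slc1a4 (-1.33, SE 0.28, adjusted p = 0.00636). Phgdh was higher (1.55, SE 0.17, adjusted p = 4.74e-05). Against condition 3, Phgdh (1.18, SE 0.16, adjusted p = 0.0037) and Psat1 (1.01, SE 0.19, adjusted p = 0.0285) were higher with compound D, as were Chac1 (1.02, SE 0.22, adjusted p = 0.0451) and Trib3 (1.28, SE 0.28, adjusted p = 0.0473). Chac1 thus lay below condition 2 and above condition 3.

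Whether GLT acted differently at 24 h and at 3 h was tested as a difference of differences, which is the same contrast under both readings of the labels. In edgeR 0 of 34 synthetases passed, with 6 at an unadjusted p below 0.05 and 2 in DESeq2, where 0.0716% of all genes passed (0.0318% higher and 0.0398% lower). The smallest p values were those of Wars (0.75, 95% interval 0.32 to 1.17, adjusted p = 0.238) and Tars (0.79, 95% interval 0.32 to 1.25, adjusted p = 0.246). The value lay above 0 in 19 of 20 cytosolic genes, with a median of 0.31, and in 10 of 14 mitochondrial genes, with a median of 0.30, against 0.01 for all genes. With scaling by library size alone the median of all genes in this contrast was 0.38, so the medians given hold relative to TMM scaling.

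The effect of compound D was set against time in the same way. With condition 3 as 3 h GLT (records), 1 synthetase had a lower effect at 24 h than at 3 h (Nars, -0.81) and 1 a higher one (Pars2, 1.12), where 7.7% of all genes passed (3.75% higher and 3.94% lower). The members' share was below that of all genes. With condition 2 as 3 h GLT (sheet), 0 of 34 passed in edgeR, with 4 at an unadjusted p below 0.05 and DESeq2 not run, where 0.0318% of all genes passed (0.00795% higher and 0.0239% lower).

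The cytosolic genes that carry TGATGCAA differed in pattern from those that do not. Mean log2(CPM + 0.5) of the 7 carriers minus that of the 10 other cytosolic genes with a promoter was 0.831, 0.779 and 0.712 in 24 h GLT with compound D (preparations 1, 2 and 3). It was 0.357 and 0.566 in 24 h GLT with compound E (preparations 1 and 2), against 0.569, 0.644 and 0.425 in 24 h GLT. Every compound D library lay above all libraries of 24 h GLT and of 24 h GLT with compound E, in all 3 preparations. In 3 h GLT it was 0.986, 0.872 and 0.803 with compound D and 0.789 in the compound E library. It was 0.584, 0.679 and 0.463 in condition 3, 0.936, 0.905 and 0.827 in condition 2, and 1.06, 0.972 and 0.711 in 3 h control. Condition 3 overlapped with 24 h GLT, with its preparation 2 library, which stood apart in depth and Rn45s, above the highest 24 h GLT library. Every condition 2 library lay above those of both. The carriers were grouped by sequence alone, the split was chosen with earlier results known, and no test was made of the score.

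**Figure D4:**
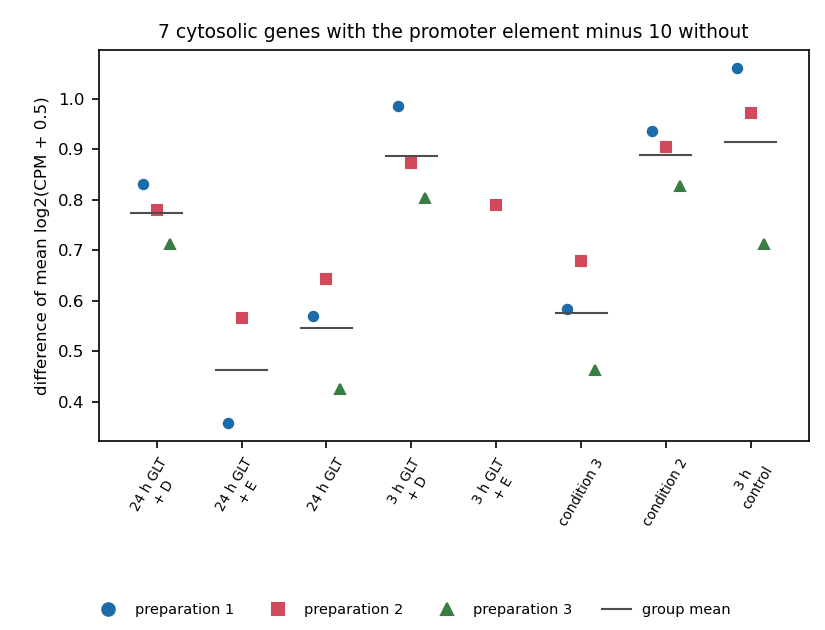
Difference between the mean log2(CPM + 0.5) of 7 cytosolic synthetases with the promoter element and of 10 without it, in each library by condition; symbols mark the preparation and lines the group means. Libraries of 24 h GLT with compound D (0.712 to 0.831) lie above those of 24 h GLT (0.425 to 0.644) and of condition 3 (0.463 to 0.679).

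By gene, the carriers had a median change of 0.17 with compound D at 24 h against 24 h GLT (5 of 7 above 0), and the other 10 a median of -0.13 (1 of 10 above 0). Between 24 h GLT and condition 2 the carriers had a median of -0.09 and the others 0.23. In condition 3 against 3 h control 0 of 7 carriers lay above 0 (median -0.34), against 4 of the 10 others (median -0.05). In 3 h GLT with compound D against condition 3 the carriers' median was 0.39, with 2 that passed, and that of the others -0.03. Against condition 2 the same medians were 0.04 and 0.03. Of the carriers, Tars rose in 24 h GLT against condition 3, Cars fell in condition 3 against 3 h control, and Cars and Yars rose with compound D against condition 3. Mars overlaps Ddit3 and Aars overlaps Ddx19b in GRCr8, so their counts are uncertain where the counting could split or drop shared reads.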

How the data were processed

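Gene counts of 21 libraries of rat islets were deposited as whole-number counts per gene, with no normalization, and were used as the authors deposited them. Per the submitters' processing notes, paired reads of 100 bp were processed with TopHat2 2.0.3 and Bowtie2 2.0.0 on rn5 and counted with HTSeq; the strand setting and the annotation are not given in the sources used here. Rows that name no gene (no feature 10.3% to 18.7% of reads, ambiguous 0.161% to 2.32%, multiple alignments 4.92% to 23.4%) were left out. Counts were fitted with edgeR 4.0.16 (R 4.3.3): TMM scaling, filterByExpr (12576 of 17025 genes), 1 quasi-likelihood fit over all libraries with condition and preparation, 11 residual degrees of freedom, 2-sided tests, and Benjamini-Hochberg adjustment over all genes tested with a threshold of 0.05. Scores used log2(CPM + 0.5). Condition labels follow the sample records unless both readings are given.

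The preparation is a block because each pool of islets was divided over the groups. On average, libraries of one preparation deviated together from their group means (mean correlation 0.232, 0.417 and 0.458 for preparations 1, 2 and 3). The lowest mean over a pair of conditions was 0.0736, so the pairing was weak for some conditions. The script was tested on simulated counts with set changes in some genes and no preparation effect, so that run does not bear on the block. Alternatives were RLE scaling, library size only, no low-count filter, no block, only the groups compared, the sample sheet's groups, DESeq2 1.42.0, other pseudocounts, leaving the insulin genes and Rn45s out of the scaling, and each preparation left out; a term for ambiguous reads and each library left out were added after seeing the data.

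The members and lists were chosen with earlier results of these data known. Per-library values are given for members that pass, up to 6 cytosolic and 4 mitochondrial by adjusted p, or for the 2 with the smallest p where none passes; Farsa, Wars and other values given for contrast were chosen after their values were seen. Other lists give up to 4 members that pass. Promoters and gene overlaps come from RefSeq tables of GRCr8, a build other than that of the counts. Groups have at most 3 pools. The p-values rest on the spread left between libraries after condition and preparation were fitted, estimated over all libraries. Some items of these lists and sequences are not reported here.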

Additional observations from a re-analysis of the deposited data

Results flagged for a closer look

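The effect of compound D on 2 synthetases differed between 24 h and 3 h when the groups were read as in the sample records, where 7.7% of all genes passed this test of the difference. The share of synthetases that passed was below that of all genes. Nars, the asparagine enzyme, had a difference of effects of -0.81 (SE 0.20, adjusted p = 0.0223, edgeR). Its effect was -0.35 at 24 h (380.0, 349.8 and 473 CPM with compound D, against 461, 489.9 and 578 CPM in 24 h GLT), and 0.46 at 3 h (529, 477 and 491 CPM with compound D, against 370.4, 330.0 and 391 CPM in condition 3). Pars2, the mitochondrial proline enzyme, had a difference of 1.12 (SE 0.31, adjusted p = 0.0414), with effects of 0.50 at 24 h and -0.62 at 3 h. None of these 4 single effects passed the test.

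With the groups of the sample sheet, 3 h GLT is condition 2, and neither difference passed: -0.38 (SE 0.20, adjusted p = 0.672) for Nars and 0.11 (SE 0.32, adjusted p = 0.956) for Pars2, where 0.0318% of all genes passed. The effect at 3 h was then 0.03 for Nars and 0.39 for Pars2.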

How the results depend on the processing

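Counts of synthetases that passed depended on the libraries and on the model, and the cause was not tested. RLE scaling left 0 for compound D at 24 h against 3 h, as did no filter on low counts. Scaling by library size only left 0 for compound D at 24 h against 24 h GLT and against 3 h with compound D, for 24 h GLT against 3 h control and condition 3, for condition 3 against 3 h control and for compound D at 3 h against condition 3; the median of all genes then lay between -0.39 and 0.38. Without the replicate block the same 6 counts were 0, 0, 0, 0, 0 and 1. With only the groups compared, 24 h GLT against condition 2 gave 11 and compound D at 24 h against 3 h gave 4, while compound D against 24 h GLT and condition 2, 24 h GLT against condition 3, condition 3 against 3 h control and compound D at 3 h against condition 3 gave 0. With the sample sheet's groups, 24 h GLT gave 2 against 24 h control and 7 against 3 h GLT, and compound D gave 0 against 3 h GLT at 3 h and 0 against 24 h control. DESeq2 gave 2 for compound D against 24 h GLT, 1 for compound E against D, 3 for compound D at 24 h against 3 h, 1 for compound D at 3 h against 3 h control, 3 for 24 h GLT against 3 h control, 5 against condition 3, 2 for condition 2 and 2 for condition 3 against 3 h control, 6 for compound D at 3 h against condition 3, and 2 for the difference of GLT effects. A term for ambiguous reads gave 0 for compound D against 24 h GLT and 2 for 24 h GLT against 3 h control.

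Leaving out 1 preparation or 1 library gave 0 for compound D against 24 h GLT and for compound D at 24 h against 3 h, 0 to 3 (library) and 0 to 2 (preparation) for compound E against 24 h GLT, 0 to 8 for compound E against D, 0 to 2 for 24 h GLT against 3 h control, 0 to 7 against condition 2 and 0 to 1 against condition 3, 0 to 2 for condition 2 and 0 to 1 for condition 3 against 3 h control, 0 to 3 for compound D at 3 h against condition 3, and 0 to 6 for compound D at 24 h against condition 2. It gave 0 for compound D at 3 h against 3 h control and for the difference of GLT effects. With the sample sheet's groups 3 values changed sign: Dars in 24 h GLT against 24 h control (-0.0088), Dars with compound D against 3 h GLT (0.13) and Rars2 with compound D against 24 h control (-0.27). In the 7 groups with replicates, the cytosolic minus mitochondrial difference moved by less than the SD between libraries under the other scalings tried, but by more under a pseudocount of 2, and under 0.1 in all but 3 h control. With a pseudocount of 2 the means were 3.57 in condition 3 and 3.92 in condition 2, and with 0.1 they were 3.84 and 4.26; these stayed the lowest and the highest of the groups. Mitochondrial genes had as few as 49 counts in a library, which limits what can be detected for them.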
